A study of Caenorhabditis elegans with 2 samples.

Results

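The small ribosomal subunit protein genes of Caenorhabditis elegans were examined for chromatin occupancy by HMG-4. They were taken as the protein-coding genes of the Ensembl WBcel235 annotation (release 115) whose names start with rps-, which gave 31 of 19973 protein-coding genes on the nuclear chromosomes. Each encodes 1 protein of the small ribosomal subunit, the part of the ribosome that binds the mRNA and in which codons are read. Cytoplasmic ribosomal protein genes are among the most strongly transcribed genes of dividing cells, and in this worm many of them are trans-spliced, so that a short spliced leader replaces the first stretch of the transcript. The annotated 5' end of such a gene is then the splice acceptor and not the place where transcription starts. HMG-4 is a worm homologue of SSRP1, a subunit of the histone chaperone FACT, which loosens nucleosomes in front of RNA polymerase and helps to restore them behind it.

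Early embryos, collected by bleaching and given as 0 hours and of mixed sex, were used from strain OP660. Its transgene wgIs660, in an unc-119(tm4063) background, holds hmg-4 joined to TY1, EGFP and 3xFLAG tags and unc-119(+) as a marker, so the protein followed is the tagged transgene product, and HMG-4 made from the endogenous gene is not seen by the antibody against GFP. Chromatin sheared by sonication to fragments of 200 to 800 bp was immunoprecipitated in 2 biological replicates, which form 1 group. No other strain, stage or condition was compared, so what follows describes places and strengths of peaks in this group, and no test between groups of samples could be made.

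Peaks came as 4 lists by the authors, on ce11, which is WBcel235: a list for each replicate, a list called on the pooled replicates, and an IDR list, in which peaks had passed a threshold on the irreproducible discovery rate, a measure of how well ranks agree between replicates. Each replicate's list and the pooled list hold 30000 peaks and the IDR list holds 2137, all of them among the strongest of the pooled list. Peak strength is the signal value given by the authors' peak caller, on a linear scale with no unit stated. The summit is the base at which a peak is highest, and its offset is counted from the annotated 5' end of a gene, with negative offsets upstream of the gene.

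The sequences around the 5' ends show what the offsets are counted from. An AG, the last bases of a splice acceptor, stood directly before the annotated 5' end of 28 of 31 rps genes (90.3%), against 38 of 47 rpl genes of the large subunit (80.9%) and 27.6% of all protein-coding genes. CAG stood there in 25 rps genes, against 22.1% of all protein-coding genes. The following windows hold 30 bases before and 30 bases from the 5' end on, in gene direction, read from the RefSeq copy of WBcel235. AG directly before the 5' end is in capitals, and rps-22, rps-24 and rps-27 are shown because they have none there.
rps-28 (chrIV:1659661-1659720, + strand): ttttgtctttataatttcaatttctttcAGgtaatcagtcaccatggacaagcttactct
rps-12 (chrIII:5679268-5679327, + strand): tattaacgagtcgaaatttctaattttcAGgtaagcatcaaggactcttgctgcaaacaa
rps-1 (chrIII:4475888-4475947, + strand): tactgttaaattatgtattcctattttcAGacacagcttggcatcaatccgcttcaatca
rps-4 (chrIV:7084653-7084712, - strand): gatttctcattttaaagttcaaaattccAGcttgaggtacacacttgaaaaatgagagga
rps-11 (chrIV:11602611-11602670, + strand): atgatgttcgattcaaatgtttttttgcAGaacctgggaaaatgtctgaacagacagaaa
rps-13 (chrIII:6374968-6375027, - strand): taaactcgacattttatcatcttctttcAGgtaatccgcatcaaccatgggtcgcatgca
rps-8 (chrIV:7313831-7313890, - strand): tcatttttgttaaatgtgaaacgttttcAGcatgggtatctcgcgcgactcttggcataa
rps-22 (chrIII:1950505-1950564, + strand): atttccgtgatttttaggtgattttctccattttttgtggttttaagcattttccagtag
rps-24 (chrIV:385857-385916, + strand): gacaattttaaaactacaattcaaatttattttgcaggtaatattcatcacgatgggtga
rps-27 (chrV:104048-104107, - strand): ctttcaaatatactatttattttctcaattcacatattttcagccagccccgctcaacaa
In each of the windows without capitals a CAG lies among the bases after the annotated 5' end. The coding sequence began a median of 11 bp after the 5' end of rps genes (range 1 to 141 bp), and within 50 bp in 29 of 31. The place where transcription starts is not used here.

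HMG-4 peaks lay in front of a large share of the rps genes. An IDR summit lay within 500 bp of the 5' end in 15 of 31 rps genes (48.4%), while 4.38% of all protein-coding genes had one. The share was 38.3% for the 47 rpl genes (18 genes). It was 4.29% for the 70 genes of mitochondrial ribosomal proteins (3 genes) and 8.33% for 36 other genes of the ribosome and its assembly (3 genes). Adding summits inside the gene left the rps count at 15, against 6.47% of all protein-coding genes. Among 4217 protein-coding genes of the same length range as the rps genes (307 to 1163 bp), 3.87% had an IDR summit within 500 bp.

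In the longer pooled list, 28 of 31 rps genes (90.3%) had a summit 500 bp or less from the 5' end, against 29.5% of all protein-coding genes. The pooled share was 85.1% for rpl genes, 55.7% for mitochondrial ribosomal protein genes and 72.2% for the other ribosome and assembly genes. The rps and rpl shares in the IDR list differed by 10.1 percentage points, and the sign of this difference turned to -2.95 percentage points in the stronger part of the IDR list, split at its median signal value. The difference was 3.64 percentage points without replicate 2, with as many of the strongest replicate 1 peaks as the IDR list holds, and 4.67 percentage points without peaks at small RNA genes. The data do not order these families.

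All 15 IDR summits of rps genes lay upstream, at offsets of -465 to -111 bp with a median of -283 bp and quartiles of -367 and -257 bp. The median was -290 bp for rpl genes and -173.5 bp over the 874 protein-coding genes with an IDR summit, of which 81.5% had it upstream. A summit more than 100 bp upstream was found at 15 of 15 rps genes, against 16 of 18 rpl genes (88.9%) and 67.6% of those 874 genes. All 18 rpl summits were upstream too. With the window narrowed to 200 bp, 3 rps genes kept an IDR summit (9.68%), against 2.18% of all protein-coding genes. These were rps-12, rps-20 and rps-22. Widened to 1000 bp it took in 18, against 6.2% of all protein-coding genes.

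**Figure D1:**
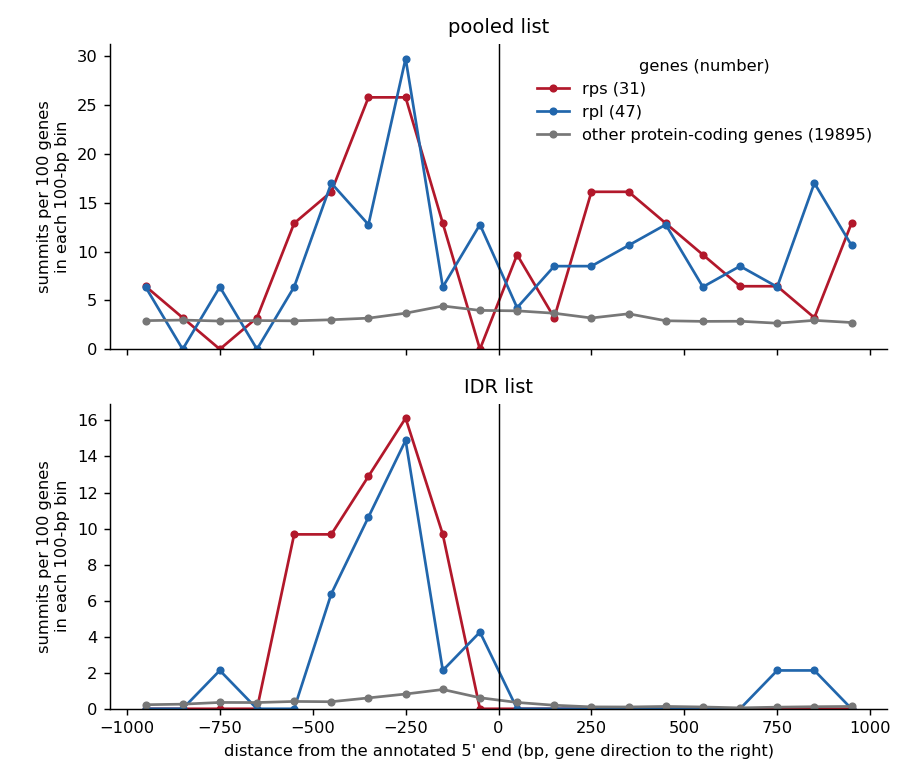
Number of peak summits per 100 genes in bins of 100 bp from 1000 bp upstream to 1000 bp downstream of the annotated 5' end, for 31 rps genes, 47 rpl genes and 19895 other protein-coding genes, in the pooled list (top) and the IDR list (bottom). The rps line is highest between -400 and -200 bp, at 25.8 pooled summits per 100 genes in each bin, and is at 0 from -100 bp to the 5' end.

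The profile of summits along the rps genes had 2 parts. In the pooled list, the bins from -400 to -300 bp and from -300 to -200 bp held 8 rps summits each. That is 25.8 per 100 rps genes, against 12.8 and 29.8 per 100 rpl genes and 3.18 and 3.69 per 100 other protein-coding genes. The bin from -100 bp to the 5' end held 0 rps summits, against 12.8 per 100 rpl genes and 3.98 per 100 other protein-coding genes. With 31 genes, 1 summit in a bin is already 3.23 per 100, so this 0 is a description only. Downstream, the bins from 200 to 300 bp and from 300 to 400 bp held 5 summits each, or 16.1 per 100 rps genes, against 8.51 and 10.6 per 100 rpl genes and 3.20 and 3.63 per 100 other protein-coding genes. The IDR summits lay in the upstream part. In the bins from the 5' end to 600 bp beyond it they numbered 0, where other protein-coding genes had 0.101 to 0.352 per 100 genes in each bin, so the 0 is near the level of other genes.

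Offsets were also compared by whether an AG stands before the 5' end, over the whole genome. Over all protein-coding genes with an IDR summit within 500 bp, the median offset was -231 bp for 376 genes with the AG and -119.5 bp for 498 genes without it. Left without rps and rpl genes, the median with the AG was -221 bp (348 genes). Among rps genes, the 13 with the AG had a median of -283 bp, and the 2 without it were rps-24 at -308 bp and rps-22 at -111 bp. An IDR summit was present at 46.4% of rps genes with the AG, against 6.82% of all protein-coding genes with it. Without the AG it was present at 2 of 3 rps genes (66.7%), against 3.44% of all protein-coding genes without it. Counted from the start of the coding sequence, the median of the 15 IDR offsets was -288 bp.

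The proteins of the subunit were grouped by their place in its head or body, a grouping made after the values had been seen. IDR summits were found at 6 of 13 genes of head proteins and at 9 of 18 genes of body proteins, platform proteins included. The median pooled signal value was 167 for head genes (11 with a pooled peak) and 136 for body genes (17 with a pooled peak). Both groups held strong and weak members, which are given one by one for the 15 genes with an IDR summit.

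Among head proteins, rps-28 (chrIV:1659691-1659997) encodes a small protein at the channel by which mRNA leaves the subunit. Its peak had a signal value of 365 pooled, 189.9 in replicate 1 and 180.3 in replicate 2, with the pooled summit at -465 bp. It was the strongest of the rps genes and ranked 160 in the IDR list. At rps-19 (chrI:9625049-9625796), whose human homologue is mutated in Diamond-Blackfan anaemia, the signal value was 309.9 pooled, 153 in replicate 1 and 147 in replicate 2, with the summit at -283 bp. These genes were the strongest pair in both replicates.

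The gene of rps-12 (chrIII:5679298-5680187), a protein of the beak of the head, had a signal value of 225 pooled, 98.4 in replicate 1 and 127 in replicate 2, at -184 bp. At rps-15 (chrI:8815572-8816193), a protein near the decoding site, the values were 177 pooled, 94.6 in replicate 1 and 75.4 in replicate 2, at -368 bp. Replicate 2 was the higher at rps-12 and replicate 1 at rps-15. The gene of the head protein rps-20 (chrI:14468332-14469103) had 171 pooled, 47.0 in replicate 1 and 124 in replicate 2, at -196 bp. Its replicate ratio of 0.378 was the lowest of the 27 rps genes seen in both replicates, so its pooled value rests mainly on replicate 2. At rps-10 (chrI:4583913-4584505), a beak protein that is ubiquitinated on stalled ribosomes in human cells, the values were 167 pooled, 74.5 in replicate 1 and 94.3 in replicate 2, at -366 bp.

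Among body proteins, rps-26 (chrI:14759930-14760626), which contacts mRNA at the exit channel in yeast, had a signal value of 239 pooled, 93.4 in replicate 1 and 142 in replicate 2, at -425 bp. It was the strongest of the body genes, but its summit lay 32 bp from the 5' end of tmem-107 on the opposite strand. At rps-30 (chrV:7776578-7777225), which is made as a fusion to a ubiquitin-like protein, the values were 181 pooled, 102 in replicate 1 and 82.2 in replicate 2, at -275 bp. At rps-24 (chrIV:385887-386606), whose human homologue is another Diamond-Blackfan anaemia gene, they were 178 pooled, 124 in replicate 1 and 56.9 in replicate 2, at -308 bp. The ratio of replicate 1 to replicate 2 at rps-24, 2.18, was the highest among rps genes, so its pooled value rests mainly on replicate 1.

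The platform protein gene rps-1 (chrIII:4475918-4476876) had 169 pooled, 69.5 in replicate 1 and 104 in replicate 2, at -249 bp. At rps-4 (chrIV:7083696-7084682), a body protein that binds the ribosomal RNA, the values were 159 pooled, 80.9 in replicate 1 and 78.6 in replicate 2, at -265 bp. At rps-23 (chrIV:12390298-12391053), a protein of the decoding centre, they were 151 pooled, 84.4 in replicate 1 and 69.0 in replicate 2, at -271 bp. The replicates were nearest to each other at rps-4 within this set, and the summits of all 3 genes lay within a short stretch of offsets.

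At rps-21 (chrIII:7189178-7189631), a protein of the solvent side, the values were 146 pooled, 87.2 in replicate 1 and 62.4 in replicate 2, at -310 bp. The gene of rps-11 (chrIV:11602641-11603280), a protein bound early to the ribosomal RNA, had 145 pooled, 86.2 in replicate 1 and 70.5 in replicate 2, at -424 bp. At rps-22 (chrIII:1950535-1951425), another early-binding body protein, they were 136 pooled, 45.3 in replicate 1 and 84.3 in replicate 2, at -111 bp. This gene held the weakest and nearest of the 15 peaks, at rank 1899 of the IDR list. The 15 genes had a median IDR signal value of 171, against 195 for rpl genes and 175 over all protein-coding genes with an IDR summit. Of the 15 rps peaks, 7 were in the stronger part of the IDR list, whose median was 176.

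**Figure D2:**
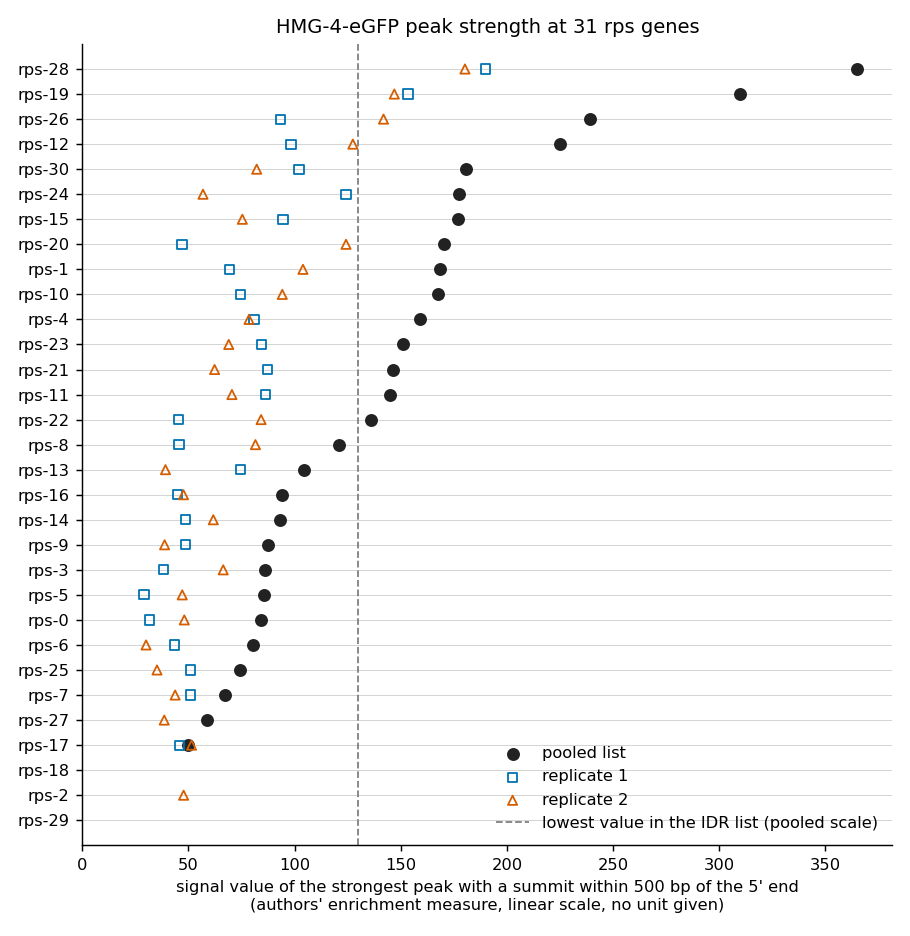
Signal value of the strongest peak whose summit is 500 bp or less from the 5' end at each of the 31 rps genes, in the pooled list (filled circles), replicate 1 (squares) and replicate 2 (triangles), on the authors' linear scale. The 15 genes at the top pass the lowest IDR signal value of 130 (dashed line), which applies to pooled values only, and rps-18 and rps-29 have no symbol.

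The boundary of the IDR list runs through a continuous range of rps values. The lowest signal value in the IDR list was 130. Just inside it were rps-22 at 136 and rps-11 at 145, and just outside it were rps-8 at 121 and rps-13 at 105. Just beyond the 500 bp window, IDR summits lay at -560 bp from rps-29 (signal value 137), -588 bp from rps-18 (193) and -594 bp from rps-27 (149). On the opposite strand, snt-2 starts 567 bp upstream of rps-29, sec-61.A 415 bp upstream of rps-18 and picd-1 748 bp upstream of rps-27. Each summit is thus nearer to the neighbour's 5' end, and that of rps-18 lies beyond the start of sec-61.A. These peaks cannot be assigned to the rps genes alone. With these 3 genes counted, 18 of 31 had an IDR summit within 1000 bp.

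Among the rest, the 5 genes with the strongest pooled peaks were rps-8, rps-13, rps-16, rps-14 and rps-9, and their strongest peak was often not the same one in each list. At rps-8, a body protein, the pooled signal value was 121 at -240 bp, replicate 1 had 36.1 at -247 bp, and replicate 2 had 81.6 at -306 bp. The strongest replicate 1 peak of rps-8 was another, inside the gene at 365 bp, with 45.6. At rps-13, which binds the ribosomal RNA of the body, the pooled value was 105 at 57 bp, the strongest replicate 1 peak had 74.5 at 108 bp, and that of replicate 2 had 39.2 at -129 bp. Both genes were thus high in 1 replicate and lower in the other. At rps-16, a head protein that reaches the tRNA, the pooled value was 94.1 at 360 bp, replicate 1 had 44.8 at 259 bp, and replicate 2 had 47.7 at 359 bp. The gene fib-1 ends 109 bp upstream of rps-16 on the same strand. At rps-14, a platform protein, the pooled value was 93.4 at -247 bp, replicate 1 had 26.7 at -244 bp, and replicate 2 had 61.8 at -247 bp. The strongest replicate 1 peak of rps-14 lay inside the gene at 335 bp, with 48.7. At rps-9, a protein of the mRNA entry channel, the pooled value was 87.7 at 299 bp, replicate 1 had 48.8 at 296 bp, and replicate 2 had 38.8 at 413 bp. The strongest pooled summit lay inside the gene in 3 of these 5.

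In all, 13 rps genes had a pooled summit but no IDR summit within 500 bp, with signal values of 49.8 to 121 and a median of 85.7. Their strongest summit was upstream in 6 and inside the gene in 7, and 9 of the 16 rps genes without an IDR summit within 500 bp had some pooled summit upstream within 500 bp. The deposited −log10 q-values of these peaks ran from 0.388 to 2.31, with 4 at a q-value of 0.05 or lower, against 2.54 to 2.95 at the 15 genes with an IDR summit. The genes with no pooled summit within 500 bp were rps-2, rps-18 and rps-29. For rps-18 and rps-29 the nearest IDR summits are those given above, and rps-2, a protein of the mRNA entry channel, had a pooled summit inside the gene at 751 bp with a signal value of 86.8. Every rps gene had a pooled summit within 1000 bp, against 41.5% of all protein-coding genes.

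The replicates placed the summits close together at the genes with an IDR summit and less so at the others. A summit within 500 bp was found at 27 rps genes in replicate 1, against 28.2% of all protein-coding genes, and at 29 in replicate 2, against 31.5%. At 27 rps genes it was found in both, against 17.7% of all protein-coding genes. At the 15 genes with an IDR summit, the summits of replicate 1 and replicate 2 lay a median of 20 bp apart (at most 94 bp), and all were upstream in both. At the 12 genes seen in both replicates without an IDR summit, the distance had a median of 190 bp and reached 671 bp, with 4 within 100 bp. The IDR list holds peaks chosen for agreement between replicates, so close summits at its genes were favoured by that choice. The distance is taken between the strongest peaks of each replicate, which at the 12 others need not be the same peak.

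The signal value of replicate 1 over that of replicate 2 at the 15 genes had a median of 1.04 and ran from 0.378 to 2.18, with replicate 1 higher at 9 genes and replicate 2 at 6. Across the 27 genes seen in both replicates, Pearson's r between the signal values of each replicate's strongest peak, which need not be the same peak, was 0.69 and Spearman's rho was 0.52. Across the 15 genes with an IDR summit, chosen in part by these values, r was 0.52 and rho was 0.16. Genes within a library share its depth and its control and are not replicates, so these are descriptions. Below rps-28 and rps-19, which led in both, the order of the IDR genes differed between the replicates.

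Taken as lists of the same length as the IDR list, the strongest peaks of replicate 1 had a summit within 500 bp at 13 rps genes, against 3.79% of all protein-coding genes, and those of replicate 2 at 15, against 4.83%. Both lists held 10 rps genes, each of them with an IDR summit. Outside the IDR genes, rps-13 was in replicate 1's list, and rps-8 and rps-3 were in that of replicate 2. The pooled signal value was close to the sum of the replicates' values at the 15 genes (ratio 0.924 to 1.05, median 0.992).

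**Figure D3:**
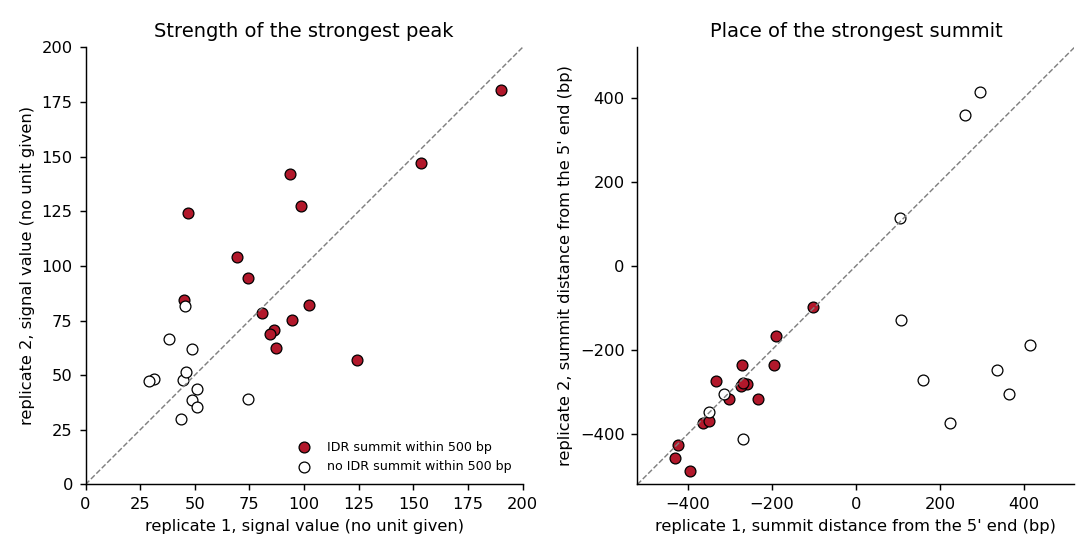
Replicate 1 (horizontal) against replicate 2 (vertical) at the 27 rps genes with a summit within 500 bp in both, as signal value of the strongest peak (left, linear scale without unit) and as its summit's distance from the 5' end in bp (right), with dashed lines of equality. Filled points are the 15 genes with an IDR summit, whose summits lie within 94 bp of each other, and open points are the 12 without, several of which lie upstream in 1 replicate and inside the gene in the other.

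Weaker summits lay inside the rps genes. In the pooled list, 20 of 31 rps genes (64.5%) had at least 1 summit in the gene, 24 summits in all, or 0.993 per kb. The rpl genes had one in 55.3%. Protein-coding genes of the same length range had one in 22.95%, and the density over all protein-coding genes was 0.333 per kb. Replicate 1 had 26 such summits in 20 rps genes and replicate 2 had 18 in 15. For the replicates' lists the share over all protein-coding genes is not given here, so these counts are a description only. The strongest summit inside an rps gene had a pooled signal value of 105. The IDR list held 0 summits inside rps genes, and over all protein-coding genes it held 0.0124 per kb of gene, so the 0 is near the level of all genes.

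At 7 genes an IDR summit upstream stood beside a pooled summit inside the gene, and the upstream signal value was 2.64 to 3.80 times the inner one (median 3.36). At the 8 genes with both kinds of summit but no IDR summit within 500 bp, the ratio ran from 0.382 to 2.39 (median 1.05). The genes were split by an IDR summit, whose lowest signal value is 130, while no inner summit of an rps gene exceeded 105. The contrast between the ratios thus follows in part from the split. Over the 15 rps genes with both an upstream summit within 500 bp and an inner summit in the pooled list, the upstream one was stronger at 12 and the inner one at 3. Another 9 genes had the upstream summit only, 5 the inner one only, and rps-18 and rps-29 neither. The inner summits showed no fixed place, with 13 of 24 in the part of the gene nearer to the 3' end.

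**Figure D4:**
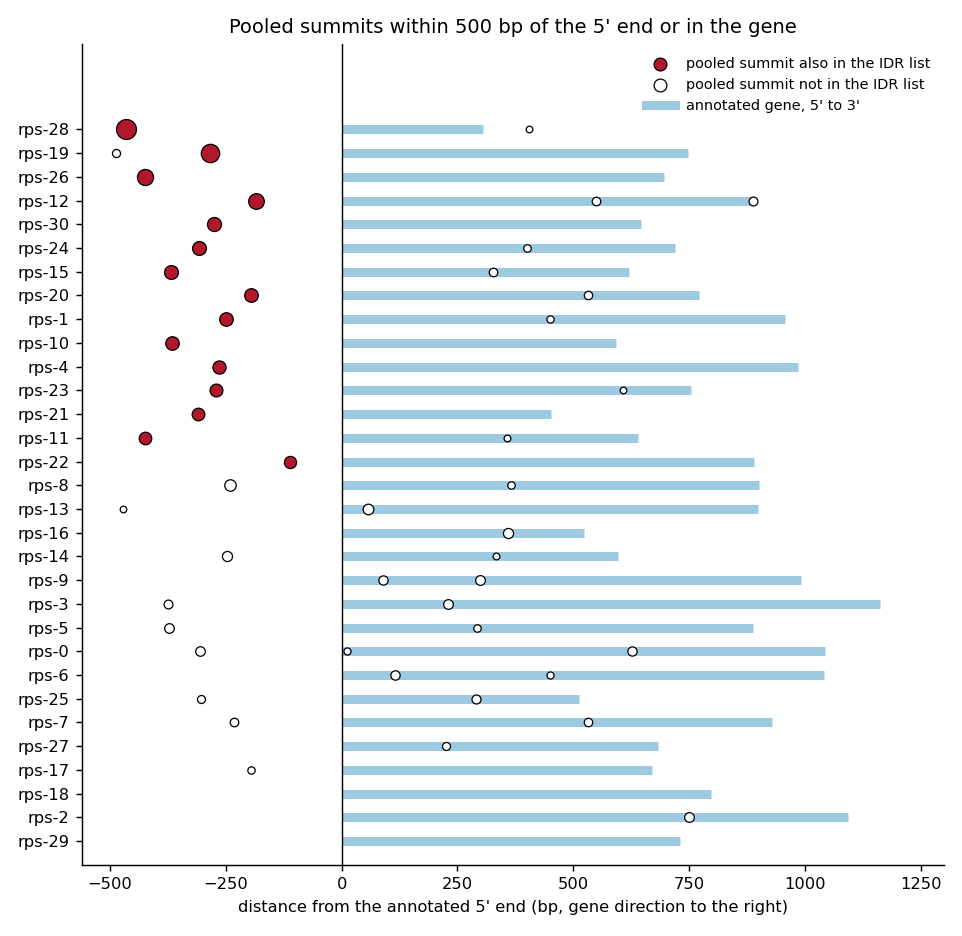
Pooled summits within 500 bp of the 5' end or inside the gene for the 31 rps genes, against distance from the annotated 5' end in bp, with the gene as a bar and circle area in proportion to the signal value. Filled circles, which are in the IDR list, all lie between -465 and -111 bp, and the 24 summits on the bars are all open.

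The sequence under the peaks was of intermediate composition. Windows of 150 bases on each side of the 15 rps IDR summits had a median GC content of 37.9% (30.6% to 44.2%), against 44.5% over 725 IDR summit windows at protein-coding genes and 35.4% in the genome. Runs of at least 5 T on the gene's sense strand lay mostly between the summit and the gene, a feature noticed on inspection of the windows. In the 100 bases on the gene side of the summit, 11 of 15 rps genes (73.3%) had such a run, and in the 100 bases on the far side 3 of 15 (20%) had one. Over the 874 protein-coding genes with an IDR summit, the shares were 43.6% and 27%. Of these 874 genes only 67.6% had the summit more than 100 bp upstream, against 15 of 15 rps genes. At the others the 100 bases on the gene side reach the 5' end or lie beyond it, so the shares are not alike in position. Windows of 100 bases on each side of the summit are shown for rps-28, the strongest, and for rps-1 and rps-4, with 5' to 3' in gene direction and T runs in capitals.
rps-28 (chrIV:1659126-1659326, + strand): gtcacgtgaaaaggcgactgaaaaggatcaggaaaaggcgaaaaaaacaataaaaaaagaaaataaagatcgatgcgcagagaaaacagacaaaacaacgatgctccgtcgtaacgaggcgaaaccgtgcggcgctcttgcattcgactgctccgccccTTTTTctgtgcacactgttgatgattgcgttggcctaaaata
rps-1 (chrIII:4475569-4475769, + strand): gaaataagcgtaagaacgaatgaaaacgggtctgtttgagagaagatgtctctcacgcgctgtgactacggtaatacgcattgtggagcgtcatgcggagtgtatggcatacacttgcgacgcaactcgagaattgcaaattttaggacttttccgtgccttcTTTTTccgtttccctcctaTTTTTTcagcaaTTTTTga
rps-4 (chrIV:7084847-7085047, - strand): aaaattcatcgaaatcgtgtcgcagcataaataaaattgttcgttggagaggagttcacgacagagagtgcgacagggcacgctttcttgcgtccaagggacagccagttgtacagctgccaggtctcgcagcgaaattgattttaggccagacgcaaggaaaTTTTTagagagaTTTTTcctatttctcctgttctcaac
In all 3 windows every run in capitals lies after the middle of the window, which is the summit. Other windows differed, with a run on the far side too at rps-22 and rps-24 and no run at rps-12 and rps-30.

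Short motifs were counted beside all protein-coding genes. In the window from 250 bases before to 50 after the 5' end, on both strands, TTTTT was found at 31 of 31 rps genes, against 97.2% of all protein-coding genes. TTTTCAG, which contains part of an acceptor, was found at 38.7% of rps genes, against 61.7% of rpl genes and 31.9% of all. TATAA was found at 45.2% of rps genes, against 57.8% of all protein-coding genes. ATTTCAG, which overlaps TTTTCAG in its last letters, was at 12.9%, against 17.3%. GAGAGAG was found at 1 rps gene (3.23%) and CCGCCC at 2 (6.45%), against 6.78% and 7.83% of all. Of the 15 IDR summits, 11 lay more than 250 bp upstream and thus outside this window. In windows of 150 bases on each side of the 15 summits, TTTTT was at 100%, against 86.3% of 725 such windows at protein-coding genes. TTTTCAG was at 46.7% against 19.0%, and ATTTCAG at 13.3% against 9.24%. TATAA was at 20% against 29.5%, CCGCCC at 20% against 19.6% and GAGAGAG at 0% against 23.2%.

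Longer words were shared between summit windows of rps genes, and they were picked by looking at these windows. The 16-base word CTGAGTATTCAACGTT occurred in the summit windows of rps-20, rps-22 and rps-30, and TACGGTAACACTCGTT in those of rps-10 and rps-23. Windows of 100 bases on each side of the summit are shown for rps-22, rps-30 and rps-23, in gene direction, with the word in capitals.
rps-22 (chrIII:1950324-1950524, + strand): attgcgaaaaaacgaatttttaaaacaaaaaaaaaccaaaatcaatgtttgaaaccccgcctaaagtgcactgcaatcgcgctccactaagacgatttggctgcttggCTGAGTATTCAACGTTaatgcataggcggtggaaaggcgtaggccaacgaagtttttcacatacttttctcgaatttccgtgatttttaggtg
rps-30 (chrV:7776203-7776403, + strand): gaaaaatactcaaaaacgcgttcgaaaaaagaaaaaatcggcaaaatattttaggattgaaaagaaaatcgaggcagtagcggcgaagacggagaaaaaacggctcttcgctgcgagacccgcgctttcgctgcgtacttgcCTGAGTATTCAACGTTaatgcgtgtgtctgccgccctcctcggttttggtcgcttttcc
rps-23 (chrIV:12391224-12391424, - strand): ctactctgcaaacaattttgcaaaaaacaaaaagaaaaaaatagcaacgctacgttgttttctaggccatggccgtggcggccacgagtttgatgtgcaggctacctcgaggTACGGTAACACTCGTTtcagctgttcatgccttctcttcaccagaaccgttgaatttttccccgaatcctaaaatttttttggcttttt
The first word has 16 copies in the genome on both strands, and 7 of them lie within 1000 bp of the 5' end of an rps or rpl gene. The copies in the windows of rps-20, rps-22 and rps-30 are there by the way the word was found. Of the 13 other copies, 4 lie near an rps or rpl gene, and 3 have an IDR summit within 150 bp, 2 of these near such a gene. These 4 are at rps-0, rpl-13, rpl-32 and rpl-7A. A pooled summit lay within 150 bp of 8 of the 13, including all 4 near a ribosomal protein gene.

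The second word also has 16 copies, 9 of them within 1000 bp of an rps or rpl 5' end. These belong to rps-10 with rpl-24.1 opposite, rps-13, rps-18, rps-23, rpl-1, rpl-11.2, rpl-19, rpl-21 and rpl-34. Leaving out the copies in the windows of rps-10 and rps-23, which led to the word, 7 of 14 lie near an rps or rpl gene. An IDR summit lay within 150 bp of 5 of the 14, of which 3 were near such a gene, and a pooled summit within 150 bp of 7, of which 4 were. Copies with no summit within 150 bp were found at rps-13, rpl-1 and rpl-19. For neither word do shares for other words of the genome stand beside these counts, so the counts are a description only. Whether any protein binds these words was not measured.

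Many rps genes start close to a divergent neighbour. A protein-coding gene on the opposite strand started within 1000 bp upstream of 19 of 31 rps genes (61.3%), against 59.6% of rpl genes and 17.7% of all protein-coding genes. It did so at 10 of 15 rps genes with an IDR summit and at 9 of 16 without. Within 500 bp of the IDR summit, another protein-coding 5' end was present at 9 of the 15 rps genes and absent at 6. The share over all genes with an IDR summit is not given here, so this count is a description only. A peak between divergent genes cannot be assigned to one of them. The IDR summit was nearer to the neighbour's 5' end at rps-26 (32 bp from tmem-107), rps-12 (109 bp from ska-3) and rps-19 (162 bp from hsr-9). The same held at rps-23 (263 bp from dpm-3), rps-10 and rps-30. It was nearer to the rps gene at rps-1, rps-15, rps-20 and rps-22.

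Some of these pairs join the subunits. The 5' ends of rps-10 and rpl-24.1 share 1 IDR peak, whose summit lies at -366 bp from rps-10 and 244 bp from the start of rpl-24.1. The 5' ends of rps-30 and rpl-39 share another, with the summit at -275 bp from rps-30 and 224 bp from the start of rpl-39. The platform gene rps-14 has rpl-36 opposite and no IDR summit within 500 bp. Among other partners, hsr-9 faces rps-19, ekl-4 faces rps-20, and polh-1, which encodes a DNA polymerase, faces rps-22.

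Small RNA genes also lie close to some peaks. A tRNA, snoRNA, snRNA, microRNA or rRNA gene had its 5' end within 500 bp of the IDR summit at 3 of the 15 rps genes, rps-10, rps-12 and rps-26, each of them a snoRNA gene, and 12 had none. This count too lacks the share over all genes with an IDR summit. Such genes lie inside 6 of 31 rps genes (19.4%), against 1.99% of all protein-coding genes. They are rps-4, rps-12, rps-13, rps-20 with the microRNA gene mir-354, rps-23 and rps-29. Of these 6 host genes, 4 had an IDR summit within 500 bp of the start, against 15 of all 31 rps genes.

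The rps genes are short, with a median of 756 bp and 3 exons, against 2027 bp and 5 exons over all protein-coding genes. The distance to the next gene upstream had a median of 532 bp, against 1156 bp over all protein-coding genes. It was 533 bp at rps genes with an IDR summit and 520 bp at those without. Gene length had a median of 720 bp with an IDR summit and 895 bp without. IDR summits were present at 5 of 8 rps genes on chromosome I, against 6.22% of all protein-coding genes there, at 4 of 9 on III, against 5.49%, and at 5 of 10 on IV, against 3.11%. They were present at 1 of 3 on V, against 2.32%, and at 0 of 1 on II, where rps-9 lies, against 3.77%. The X chromosome holds no rps gene.

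The strongest IDR peaks of the other lists give a scale for these values. Among rpl genes they were at rpl-3 (signal value 528), rpl-15 (379.7), rpl-20 (273) and rpl-11.2 (264), against 365 for rps-28. Among mitochondrial ribosomal protein genes they were at mrpl-45 (135), mrps-23 (134) and mrps-7 (129.8). Among other ribosome and assembly genes they were at fib-1 (173), which encodes fibrillarin, pro-1 (131) and riok-2 (130.1). Outside the cytoplasmic ribosomal protein genes, fib-1 alone of these 6 reached the rps median of 171. The fib-1 gene (chrV:15000651-15002223) ends 109 bp upstream of rps-16 on the same strand. Its peak thus also lies upstream of rps-16, beyond the 500 bp window, and whether the 2 genes share it was not tested.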

How the data were processed

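The data are ChIP-seq peak lists of 2 biological replicates in 1 group. The members and lists were chosen with earlier results of these data known. The authors deposited narrowPeak lists on ce11, with a signal value and a −log10 q-value for each peak. The p-value column is empty. Peaks were deposited per replicate, on pooled replicates, and after an IDR threshold. Not given in the sources used here were the aligner, the peak caller and the threshold on IDR. Peak lists hold no depth, so the depth is unknown and with it the precision of each value. Lists end at 30000 peaks, which limits the weakest ones.

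Summits were set against Ensembl release 115 genes with Python 3.11.15, numpy 2.4.6, pandas 2.3.3 and scipy 1.17.1. The strongest summit within 500 bp of the 5' end was taken for each gene, and coordinates are 1-based. The peak assignment was tested on simulated data. With 1 group no test was made, and counts stand beside those over all protein-coding genes. Full values were given for rps genes with an IDR summit, for the 5 strongest others, and for up to 4 genes of each other list. Of 38 listed ribosome and assembly genes, 36 were found. Alternatives were other windows, peak positions, 5' ends, thresholds and single replicates.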

Additional observations from a re-analysis of the deposited data

How the results depend on the processing

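The 15 rps genes with an IDR summit became 3 with a window of 200 bp and 7 in the stronger part of the IDR list, and 13 to 15 when either replicate was left out, and the same values were found when summits inside the gene were added. The 28 genes with a pooled summit became 8 with 200 bp (25.8%), against 15% of all protein-coding genes. The share with 200 bp was 31.9% for rpl genes, 30% for mitochondrial ribosomal protein genes and 38.9% for the other ribosome and assembly genes. The rps share was thus below that of each of these lists. The 27 genes seen in both replicates became 10 among the strongest peaks of each. That count has no share over all genes beside it and is a description only. The median pooled offset of -248 bp was -265 bp with a window of 1000 bp, -283 bp in the IDR list, -276 bp from the coding start, and -279 to -260 bp in single replicates. The median pooled signal value of 141 was 92.6 with 200 bp, 145 with 1000 bp and 66.4 to 69.5 in single replicates, whose values are on a scale of their own. The rps minus rpl difference of 10.1 percentage points was 3.29 with 200 bp, 13.4 with 1000 bp, -2.95 in the stronger part of the IDR list, 4.67 without peaks at small RNA genes, and 3.64 to 7.96 in single replicates. The cause of these changes was not tested, beyond the narrower window reaching fewer summits. No paired analysis was possible because there is only 1 group. Depth is unknown, so a missing peak does not show that HMG-4 was absent. Results rest on 1 strain, 1 stage and a tagged transgene, and control libraries were not used here.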
